A study of Homo sapiens with 6 samples.

Results

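Cadherins, semaphorins, ephrins and their relatives are families of membrane and secreted proteins that hold cells together or steer their movement. Cadherins and protocadherins bind the same kind of protein on a neighbouring cell, plakophilins and catenins tie them to the cytoskeleton, and ephrins, netrins, slits and semaphorins are ligands read by Eph, UNC5, Robo and plexin receptors. The guidance families were described in growing axons and are also known in epithelia and tumours, where they act on adhesion, repulsion and vessel growth. In the expression table of control and shSTYK1 PANC-1 cells, 24 of 995 genes belong to these families by their symbols. They were chosen as the rows whose symbol starts with the stem of such a family followed by a letter or digit. Of the 29 rows with matching letters 5 were set aside, namely the antisense gene FLRT2-AS1, CLDND1, which is not a claudin, and 3 genes of these families that the choice leaves out and that are not reported here. The counts below hold for the 24 and not for every family member. Of the 24, LRRC58 and LRRCC1 match only by the name of their leucine-rich repeats or coils and belong to none of the adhesion or guidance families, and they are described last. SLITRK2 matches by the letters of the slits but is not a slit, and it is described with the leucine-rich repeat adhesion molecules.

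PANC-1 is an established human pancreatic ductal carcinoma line. Poly(A)-selected RNA was sequenced from control cells and from cells with a short hairpin RNA against STYK1, a receptor-like kinase, with 3 biological replicates per group. The knockdown was delivered by a lentiviral vector with puromycin selection, and the study's methods describe resistant clones that were isolated and expanded. Whether the libraries came from separate clones, which hairpin was used and whether the control cells carried a vector are not given in the sources used here. If the replicates are cultures of the same line, the p-values measure the spread between these cultures only. STYK1 itself is not among the 995 genes, so its level could not be checked here.

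The table gives each gene as z-scores over the 6 libraries and holds genes that the study had selected as differing between the groups. A call of a member is therefore no independent evidence, and the numbers below describe how large the changes were and in which direction. Expression values with 2 decimals were recovered from the z-scores of 994 genes. Their unit is not stated and the sequencing depth is unknown, so no counting interval can be given. From z-scores alone a common factor or power of value + 1 cannot be told, and the values and log2 changes given here rest on the smallest solution. Fold changes are given on the log2(value + 1) scale, which understates the change of genes with low values, and the ratio of the group means is given beside them for the tested members. Levels of different genes should not be set against each other, since it is not stated whether the values were divided by gene length. Positions are those of GRCh38 in GENCODE 29. For 13 of the 24 members the annotation has an overlapping gene on the opposite strand, and whether counting used the strand is not given in the sources used here.

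In shSTYK1 cells the Eph receptor EPHB6, the adhesion ligand FLRT2, the ephrin EFNB2, the netrin receptor UNC5C, the adhesion molecule CADM1 and the plakophilin PKP2 were lower, and the cadherin CDH3, the protocadherins PCDH1 and PCDHB2, and the plexins PLXNA1 and PLXND1 were higher. By the mean z-score 15 of the 24 members were lower (62.5%) and 9 were higher, against 499 lower (50.2%) and 496 higher genes in the whole table. In all 24 the values of the groups were free of overlap. Of all 995 genes 48.1% were lower without overlap and 45.5% higher, 93.7% in all. The filter of at least 1 in at least 3 libraries left 16 of the 24 members. limma called all 16 at an adjusted p-value under 0.05, of which 9 were lower and 7 higher. Of the 740 genes tested across the table, 44.5% were called lower and 51.2% higher, 95.7% in all, so the share among the members is near that of the table. In 7 of the 16, every library of 1 group lay under the filter value, so that these genes passed through the other group alone. EPHB6, UNC5C, EFNB2, CADM1 and PCDH9 passed through control, and PCDH1 and EFNB3 through shSTYK1 libraries. The median log2 fold change was -1.47 over the 9 lower members and -1.17 over all lower genes called, and it was 0.98 over the 7 higher members and 0.98 over all higher genes called. These medians rest on genes selected as differing and partly on genes that passed through 1 group alone. Whether the members fell further than the table was not tested.

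Of the 8 members of the cadherin superfamily, 5 were higher and 3 were lower in shSTYK1 cells by the mean z-score. The filter left 4 of them, of which 3 were called higher and 1 lower, beside 51.2% and 44.5% of all genes tested. CDH3 (ENSG00000062038) encodes P-cadherin, a classical cadherin of basal epithelial layers. Its recovered values were 0.89, 2.34 and 1.61 in the control libraries and 5.42, 5.15 and 4.24 in the shSTYK1 libraries. The lowest shSTYK1 library lay above the highest control library, and the control libraries differed among themselves by more than the shSTYK1 libraries did. CDH3 rose from 1.61 ± 0.725 (SD, n = 3) to 4.94 ± 0.618 (SD, n = 3). The log2 difference was 1.22 (SE 0.21, limma adjusted p = 0.000818), and the means differed 3.06-fold.

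CDH1 (ENSG00000039068), which encodes E-cadherin, the main cadherin of epithelial adherens junctions, had values of 0.10, 0.27 and 0.28 in control and 0.94, 0.85 and 0.90 in shSTYK1 libraries. All 6 values lay under 1, so the gene did not pass the filter, and control library 1 was the lowest of the 6. The group means were 0.217 ± 0.101 and 0.897 ± 0.0451 (SD, n = 3), a ratio of 4.14. CDH3 and CDH1 are neighbours on the plus strand of chromosome 16 from 68636189 to 68722616 and from 68737225 to 68835548, with 14608 bases between them. Within 5 Mb of them the table holds 7 more genes, and each of these was higher in shSTYK1 cells.

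Protocadherins form the largest branch of the superfamily and are best known in neurons. PCDH1 (ENSG00000156453, chr5:141853111-141879246, minus strand), also found in epithelia, had values of 0.35, 0.47 and 0.33 in control and 1.72, 2.13 and 1.56 in shSTYK1 libraries. Every control library was under 0.5 and every shSTYK1 library was over 1.5. PCDH1 rose by 1.02 log2 units (SE 0.13, limma adjusted p = 0.000187), and its means differed 4.70-fold. PCDHB2 (ENSG00000112852, chr5:141094578-141098703, plus strand), a single-exon gene of the clustered β-protocadherins, had values of 0.76, 1.21 and 1.47 in control and 2.33, 2.68 and 2.90 in shSTYK1 libraries. It rose by 0.77 log2 units (SE 0.16, limma adjusted p = 0.00179), and its means differed 2.30-fold. Median-of-ratios scaling gave 0.51 (limma adjusted p = 0.0165). The β-protocadherins are close copies of each other, so reads may be shared among them and the value of PCDHB2 is uncertain to that extent.

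PCDH9 (ENSG00000184226, chr13:66302834-67230445, minus strand), a non-clustered protocadherin that its antisense genes overlap, was the member called lower among the 4 cadherin genes tested. Its values were 1.45, 1.26 and 1.43 in control and 0.42, 0.54 and 0.78 in shSTYK1 libraries, which is -0.60 on the log2 scale (SE 0.13, limma adjusted p = 0.00263) and a 2.38-fold difference of the means. Of the other members below the filter, CDH23 (ENSG00000107736, chr10:71396934-71815947, plus strand), a long cadherin of the hair cells of the inner ear, had 0.18, 0.20 and 0.07 in control and 0.48, 0.64 and 0.57 in shSTYK1 libraries. CDH6 (ENSG00000113361, chr5:31193750-31329146, plus strand), K-cadherin of the kidney, had 0.27, 0.30 and 0.38 in control and was listed at 0 in each shSTYK1 library. PCDH10 (ENSG00000138650, chr4:133149315-133208606, plus strand) had 0.07, 0.16 and 0.11 in control and was likewise listed at 0 in each shSTYK1 library. These 8 cadherin genes thus differed both ways: CDH1, CDH3, CDH23, PCDH1 and PCDHB2 were higher, and CDH6, PCDH9 and PCDH10 were lower.

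Plakophilins are armadillo-repeat proteins of the desmosomal plaque. PKP2 (ENSG00000057294, chr12:32790745-32896840, minus strand) had 8.71, 8.71 and 7.97 in control and 3.44, 2.54 and 2.68 in shSTYK1 libraries. Each control library was over 2-fold above the highest shSTYK1 library, and the SD within both groups was under 0.5. PKP2 fell by 1.29 on the log2 scale (SE 0.13, limma adjusted p = 7.83e-05), from 8.46 ± 0.427 to 2.89 ± 0.484 (SD, n = 3), a ratio of 2.93. No desmocollin, desmoglein, FAT cadherin or nectin symbol was found in the table used here.

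**Figure D1:**
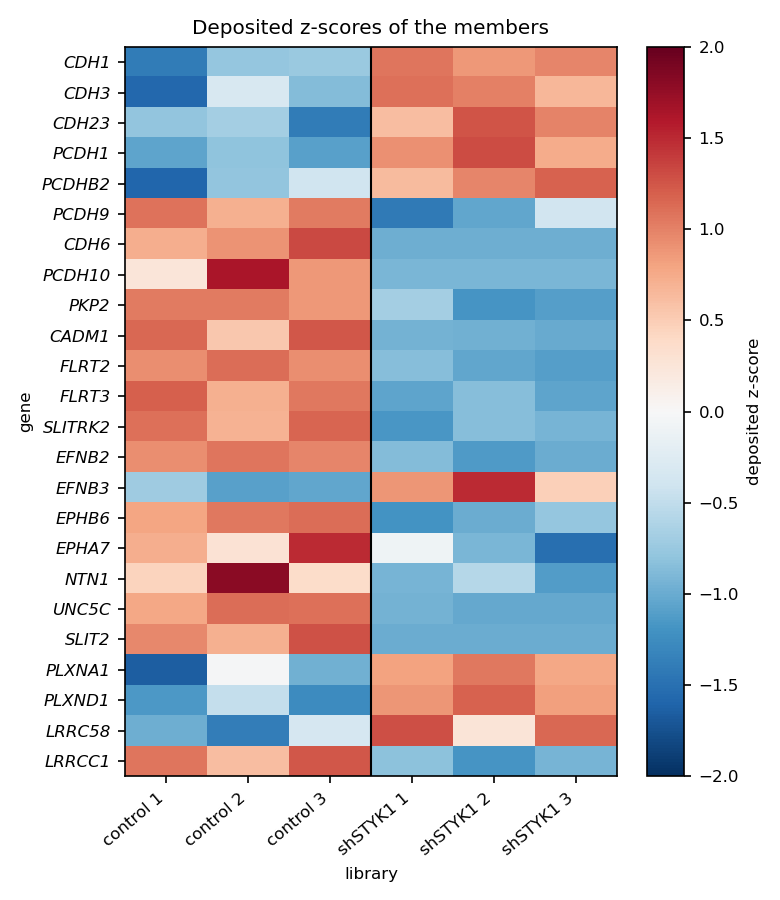
Deposited z-scores of the 24 members (rows, in the order of the families) in the 6 libraries (columns); red is above and blue below the mean of a gene, and the black line separates control from shSTYK1. The 15 lower members are red in control and blue in shSTYK1 libraries, and the contrast is weakest in the control library 2 of PLXNA1 and the shSTYK1 library 1 of EPHA7.

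Among the cell adhesion molecules with immunoglobulin or leucine-rich repeat domains, all 4 members (CADM1, FLRT2, FLRT3 and SLITRK2) were lower by the mean z-score, beside 50.2% of all 995 genes. This group joins CADM1, an immunoglobulin-type molecule, with the leucine-rich repeat molecules, which the design had kept as separate subfamilies. The filter left CADM1 and FLRT2, each called lower, beside 44.5% of all genes tested. Whether so small a group departs from these shares was not tested. FLRT2 (ENSG00000185070, chr14:85530144-85654426, plus strand) encodes a membrane protein that binds UNC5 receptors and latrophilins. Its values were 12.5, 14.6 and 12.5 in control and 2.31, 1.83 and 1.72 in shSTYK1 libraries. The groups lay far apart and the libraries of each group lay close together. FLRT2 fell by 2.27 on the log2 scale (SE 0.13, limma adjusted p = 7.75e-06), and its means of 13.2 ± 1.18 and 1.95 ± 0.314 (SD, n = 3) differed 6.75-fold. The antisense gene FLRT2-AS1, whose annotation (chromosome 14, 85524432 to 85529988, minus strand) ends just before FLRT2 starts at 85530144, had values of 1.17, 0.89 and 1.07 in control and 0.32, 0.06 and 0.19 in shSTYK1 libraries.

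FLRT3 (ENSG00000125848, chr20:14322988-14337616, minus strand), the paralogue of FLRT2, was below the filter, with 0.40, 0.30 and 0.37 in control and 0, 0.03 and 0 in shSTYK1 libraries. It lies within MACROD2 on the opposite strand. SLITRK2 (ENSG00000185985, chrX:145817832-145829856, plus strand), a neuronal protein with leucine-rich repeats, had between 0.30 and 0.38 in control and between 0.03 and 0.07 in shSTYK1 libraries. CADM1 (ENSG00000182985, chr11:115169218-115504957, minus strand), a nectin-like adhesion molecule, had 2.08, 1.23 and 2.23 in control and 0.03, 0.02 and 0 in shSTYK1 libraries. Control library 2 was the lowest of the controls for CADM1, FLRT3 and SLITRK2. CADM1 fell by 1.47 on the log2 scale (SE 0.16, limma adjusted p = 0.000106), from 1.85 ± 0.539 to 0.0167 ± 0.0153 (SD, n = 3), a ratio of 111 that rests on shSTYK1 values of 0.03 or less.

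Ephrins and Eph receptors signal in both directions across a cell contact, and B-type ephrins are transmembrane proteins. Both Eph receptors of the table were called lower, while of the 2 ephrins EFNB2 was called lower and EFNB3 higher. Of all genes tested 44.5% were called lower and 51.2% higher, and whether so small a group departs from these shares was not tested. EPHB6 (ENSG00000106123, chr7:142855061-142871094, plus strand) encodes a receptor whose kinase domain is inactive. Its values were 9.77, 13.6 and 14.7 in control and 0.06, 0.33 and 0.74 in shSTYK1 libraries. Every control library was over 10-fold above the highest shSTYK1 library, and the shSTYK1 libraries spread over a 10-fold range themselves. EPHB6 fell by 3.33 on the log2 scale (SE 0.22, limma adjusted p = 1.16e-05), on that scale the change of largest size among the 16 members tested and the 7th largest fall of the 740 genes. Its means of 12.7 ± 2.60 and 0.377 ± 0.342 (SD, n = 3) differed 33.7-fold, less than those of CADM1 and UNC5C. Each of these ratios rests on shSTYK1 values under 1, so their order is uncertain.

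EPHA7 (ENSG00000135333, chr6:93240020-93419547, minus strand), an A-type receptor with an active kinase, had 2.11, 1.72 and 2.92 in control and 1.42, 0.88 and 0.57 in shSTYK1 libraries. The lowest control library and the highest shSTYK1 library lay close together, and each group spread widely. EPHA7 fell by 0.74 on the log2 scale (SE 0.20, limma adjusted p = 0.00775), the largest p-value among the 16 members tested, and its means differed 2.35-fold. Leaving out each library in turn gave log2 changes of -0.90 to -0.59.

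EFNB2 (ENSG00000125266, chr13:106489731-106535662, minus strand), a ligand of several EphB receptors known from arteries, had 3.51, 3.86 and 3.61 in control and 0.69, 0.47 and 0.59 in shSTYK1 libraries. The libraries within each group hardly differed beside the distance between the groups. EFNB2 fell by 1.56 on the log2 scale (SE 0.12, limma adjusted p = 2.11e-05), with a 6.27-fold difference between 3.66 ± 0.180 and 0.583 ± 0.110 (SD, n = 3). EFNB3 (ENSG00000108947, chr17:7705202-7711378, plus strand), a ligand of the same class known from the nervous system, had 0.99, 0.85 and 0.87 in control and 1.71, 2.04 and 1.50 in shSTYK1 libraries. It rose by 0.53 log2 units (SE 0.13, limma adjusted p = 0.00395), with a ratio of the means of 1.94. With median-of-ratios scaling EFNB3 was at 0.29 with a limma adjusted p of 0.0694, and with quantile normalization at 0.73 (limma adjusted p = 0.00114). Its call thus depends on the scaling. The table holds 6 more genes within 5 Mb of EFNB3, and none of them was higher.

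Netrins and slits are secreted ligands, and the table holds a single member of each together with a single netrin receptor. UNC5C (ENSG00000182168, chr4:95162504-95549206, minus strand), a receptor that mediates repulsion by netrin and also binds FLRT proteins, had 1.35, 1.76 and 1.74 in control and 0.07, 0.03 and 0.03 in shSTYK1 libraries. Each shSTYK1 library was under 0.1 and each control library was over 1. UNC5C fell by 1.32 on the log2 scale (SE 0.12, limma adjusted p = 5.00e-05), and its group means differed 37.3-fold. This ratio rests on shSTYK1 values of 0.07 or less. NTN1 (ENSG00000065320, chr17:9021542-9244000, plus strand), the ligand netrin-1, was below the filter, with 0.23, 0.41 and 0.22 in control and 0.07, 0.11 and 0.05 in shSTYK1 libraries. SLIT2 (ENSG00000145147, chr4:20253260-20620561, plus strand), a ligand of Robo receptors, had 0.22, 0.19 and 0.26 in control and was listed at 0 in each shSTYK1 library. No Robo receptor was found in the table used here.

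Plexins are the receptors of semaphorins. No semaphorin symbol was found in the table used here, and both plexins were called higher in shSTYK1 cells, beside 51.2% of all genes tested. PLXND1 (ENSG00000004399), a receptor known from vessels, had 81.3, 107 and 77.5 in control and 187, 211 and 182 in shSTYK1 libraries. Every shSTYK1 library was above every control library, of which the second was the highest. PLXND1 rose from 88.6 ± 16.1 to 193 ± 15.8 (SD, n = 3), which is 2.18-fold. The log2 difference was 1.13 (SE 0.16, limma adjusted p = 0.000277), and its size depended on the scaling. It was 0.73 with median-of-ratios scaling (limma adjusted p = 0.00102) and 0.41 with quantile normalization (limma adjusted p = 0.0417).

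PLXNA1 (ENSG00000114554), which pairs with neuropilins as a semaphorin receptor, had 12.6, 23.8 and 16.6 in control and 32.6, 35.7 and 32.1 in shSTYK1 libraries. Control library 2 was again the highest control, and the controls spread more than the shSTYK1 libraries. PLXNA1 rose by 0.93 log2 units (SE 0.21, limma adjusted p = 0.00319), from 17.7 ± 5.66 to 33.5 ± 1.95 (SD, n = 3), a ratio of 1.90. With median-of-ratios scaling it was at 0.54 (limma adjusted p = 0.0171). Both plexins lie on chromosome 3, PLXNA1 from 126988594 to 127037392 on the plus strand and PLXND1 from 129555175 to 129606818 on the minus strand. From LRRC58 to PLXND1 on that chromosome the table holds 20 genes, these 3 members included, and 19 of them were higher in shSTYK1 cells. What the position contributes to the rise of the plexins was not tested.

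LRRC58 (ENSG00000163428, chr3:120324509-120349339, minus strand), named for its repeats, had 16.1, 13.6 and 20.9 in control and 39.5, 26.4 and 37.3 in shSTYK1 libraries, which is 0.98 on the log2 scale (SE 0.21, limma adjusted p = 0.00205) and 2.04-fold by the means. With median-of-ratios scaling LRRC58 was at 0.59 (limma adjusted p = 0.0364). LRRCC1 (ENSG00000133739), which encodes a centrosomal coiled-coil protein, had 5.96, 4.34 and 6.72 in control and 1.31, 0.87 and 1.17 in shSTYK1 libraries, which is -1.65 on the log2 scale (SE 0.17, limma adjusted p = 7.82e-05) and 5.08-fold by the means. Control library 2 was the lowest control in both.

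**Figure D2:**
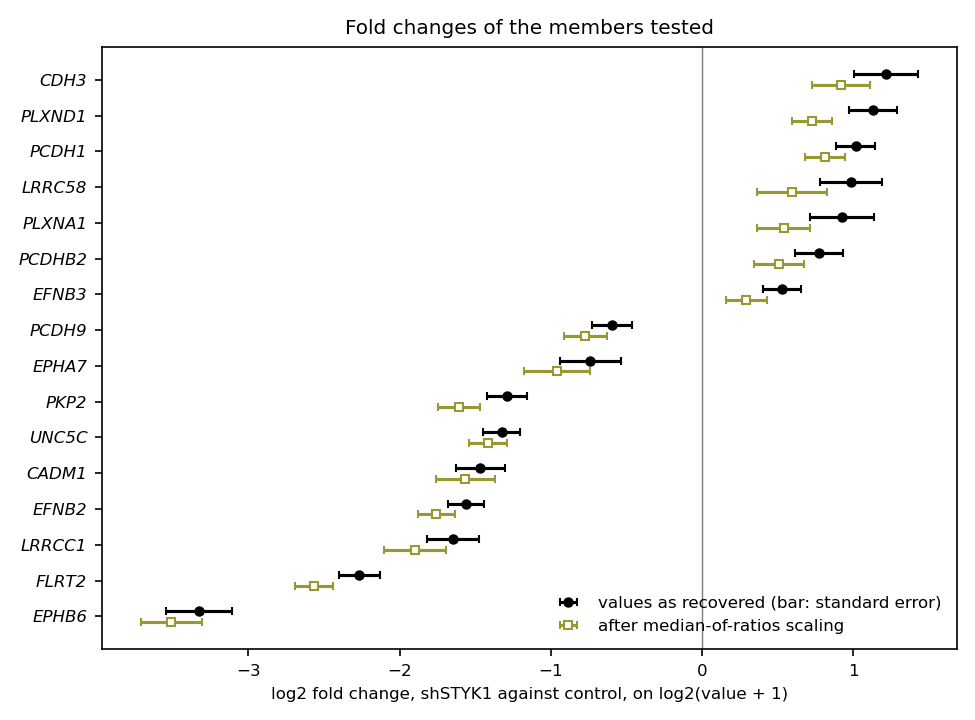
Log2 fold change of the 16 members tested (shSTYK1 against control, on log2(value + 1)) with the values as recovered (black circles) and after median-of-ratios scaling (open squares); bars are standard errors of limma. The 9 lower members stay lower and the 7 higher members stay higher under both scalings, and EFNB3 lies nearest to 0 with a log2 fold change of 0.53 and, after scaling, 0.29.

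The scaling moved the members by unequal amounts. Median-of-ratios scaling over genes above 0 in all 6 libraries lowered the median log2 fold change of the table genes tested from 0.54 to 0.29, a shift of -0.25. The lower members named here moved further down, with EPHB6 at -3.51, FLRT2 at -2.56 and PKP2 at -1.61. The higher members moved towards 0, with CDH3 at 0.92, PCDH1 at 0.81, PLXND1 at 0.73, LRRC58 at 0.59, PLXNA1 at 0.54 and PCDHB2 at 0.51. After this scaling 9 members were called lower and 6 higher, EFNB3 being the member that missed the threshold, beside 335 lower and 318 higher of the 730 table genes that passed the filter. The scaling rests on genes selected for differing between the groups, so neither scale can be preferred from the table. Under quantile normalization PCDH1 was at 1.24, further from 0 than with the values as recovered, while PLXND1 was at 0.41 and PCDH9 at -0.39.

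Other genes of these pathways were looked up in the table. A list of 76 partners of the guidance ligands and receptors has 4 rows, of which 3 passed the filter, 2 called lower and 1 higher. All 3 being called is near the 95.7% of the whole table. ADGRL2 (ENSG00000117114), a latrophilin and as such a binding partner of FLRT proteins, had 5.27, 5.19 and 6.30 in control and 0.01, 0.04 and 0 in shSTYK1 libraries. It fell by 2.69 on the log2 scale (limma adjusted p = 2.95e-06). NRP2 (ENSG00000118257), a neuropilin that binds semaphorins beside plexins, had 8.28, 8.31 and 7.44 in control and 0.82, 0.74 and 0.56 in shSTYK1 libraries, and it fell by 2.40 on the log2 scale (limma adjusted p = 4.32e-06). DPYSL4, of the family of cytoplasmic mediators of semaphorin signals, rose by 0.72 log2 units (limma adjusted p = 0.00464). With median-of-ratios scaling it was at 0.41 (limma adjusted p = 0.039). Its relative DPYSL3, below the filter, had a mean of 0.25 in control and 0.0467 in shSTYK1 cells.

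A list of 76 membrane and cytoplasmic partners of cadherins, claudins and nectins has 6 rows. Of these 4 passed the filter, 3 called lower and 1 higher. All 4 being called is near the 95.7% of the whole table, in which 44.5% were called lower and 51.2% higher. DSP (desmoplakin, which binds plakophilins in the desmosome) fell by 3.64 on the log2 scale, and the gap junction gene GJA1 fell by 5.38. PLEKHA7, a linker of adherens junctions to microtubules, had 7.76, 12.6 and 7.91 in control and 3.55, 3.88 and 3.57 in shSTYK1 libraries (log2 fold change -1.13, limma adjusted p = 0.000621). EPB41L1, a member of the protein 4.1 family that links membrane proteins to actin and spectrin, rose by 1.61 log2 units (limma adjusted p = 0.000365). Of the genes of this list below the filter, the tight junction genes CGNL1 and TJP3 had means of 0.39 and 0.383 in control and 0.07 and 1.07 in shSTYK1 cells.

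Markers of cell types were looked up beside these genes. Of 9 markers of ductal carcinoma cells the table holds CDH1 alone, so the label of the line could not be checked further. COL1A1, the 1 of 8 fibroblast markers in the table, had 26.7, 42.2 and 22.2 in control and 3.12, 3.73 and 2.94 in shSTYK1 libraries. KDR, the 1 of 6 endothelial markers, had 0.26, 0.54 and 0.44 in control and was listed at 0 in each shSTYK1 library. Of 8 neuronal markers NEFM and NEFL are in the table, and of 5 leukocyte markers none is. NEFM had 1.08, 0.82 and 0.75 in control, NEFL had 0.12, 0.18 and 0.26, and both were listed at 0 in each shSTYK1 library. What these markers have to do with the changes of the members, which went both ways, was not tested. In bulk RNA, fewer cells that express a gene and less RNA per cell cannot be told apart.

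The promoters of the members were searched for the letters of 2 sites, CTTTGA (the core of the site of TCF and LEF factors, the nuclear partners of β-catenin, which the study is about) and CACCTG (an E-box bound by SNAI and ZEB repressors, known from the gene of E-cadherin), on both strands. RefSeq promoters of 300 bases (GRCh38.p14, 250 before to 50 after a start) were at hand for 15 of the 24 members, with 21 starts. CTTTGA was found at 2 of the 21, in FLRT2 and PLXNA1, and in 12.9% of all 35116 promoters. CACCTG was found at 4 of the 21, in EFNB2, PCDH1, EPHA7 and CDH23, and in 20.6% of all promoters. Each motif was found in members that were lower and in members that were higher. To show this, 4 of these promoters are printed 5′ to 3′ on the strand of the gene, with the match in capitals (CACCTG reads CAGGTG where it lies on the other strand). FLRT2 (chr14:85531142-85531441, plus strand) fell and holds CTTTGA from base 35 after a start that is 1 of its 3, PLXNA1 (chr3:126982865-126983164, plus strand) rose and holds it from base 181 before the start, EFNB2 (chr13:106535613-106535912, minus strand) fell and holds CACCTG from base 167 before, and PCDH1 (chr5:141869578-141869877, minus strand) rose and holds it from base 81 before. The RefSeq start of PLXNA1 lies upstream of the start of the gene in GENCODE 29, and the printed starts of FLRT2 and PCDH1 lie downstream of theirs, inside the gene. The starts with a match in EPHA7 and CDH23, not printed, also lie inside the gene, in CDH23 near its far end. A match is a description of the letters and not of binding.
FLRT2: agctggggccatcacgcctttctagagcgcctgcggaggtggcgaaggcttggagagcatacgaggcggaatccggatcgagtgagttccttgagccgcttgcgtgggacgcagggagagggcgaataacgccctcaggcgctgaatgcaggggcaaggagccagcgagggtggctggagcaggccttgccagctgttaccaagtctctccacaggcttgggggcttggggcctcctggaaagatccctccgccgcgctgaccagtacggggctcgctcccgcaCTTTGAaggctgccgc
PLXNA1: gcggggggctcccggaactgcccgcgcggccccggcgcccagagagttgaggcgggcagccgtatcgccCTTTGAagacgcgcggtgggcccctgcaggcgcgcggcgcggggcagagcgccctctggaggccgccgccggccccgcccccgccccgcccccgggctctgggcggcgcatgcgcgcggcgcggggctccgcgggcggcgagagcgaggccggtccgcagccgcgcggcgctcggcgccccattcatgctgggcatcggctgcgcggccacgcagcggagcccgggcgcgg
EFNB2: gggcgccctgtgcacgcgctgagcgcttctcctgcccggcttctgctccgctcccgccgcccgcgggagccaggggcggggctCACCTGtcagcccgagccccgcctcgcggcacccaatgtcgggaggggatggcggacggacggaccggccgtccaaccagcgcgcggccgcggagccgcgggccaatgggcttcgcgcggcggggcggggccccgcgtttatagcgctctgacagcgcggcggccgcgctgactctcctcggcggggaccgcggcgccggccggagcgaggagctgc
PCDH1: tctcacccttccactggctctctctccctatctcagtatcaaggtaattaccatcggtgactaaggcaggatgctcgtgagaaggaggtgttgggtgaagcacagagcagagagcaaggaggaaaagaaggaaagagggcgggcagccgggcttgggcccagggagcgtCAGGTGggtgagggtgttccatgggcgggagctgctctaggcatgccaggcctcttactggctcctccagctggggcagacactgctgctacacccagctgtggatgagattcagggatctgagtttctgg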

How the data were processed

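The 6 libraries and their groups were taken from the sample labels. Per the labels, the submitters' processing notes name RSEM, DESeq2 and the build GRCh38 (hg38), without versions or roles. The authors deposited z-scores, each gene's score being centred on 0 and scaled to unit SD (divisor 6), with 12 digits, for 995 genes, of which 923 have a symbol in the gene name table. The annotation and the expression unit are not given in the sources used here.

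For each gene, numbers of 2 decimals were searched whose log(value + 1) returned the z-scores within 6e-12 (Python 3.11.15, numba 0.67.0, numpy 2.4.6), with value + 1 up to 2000. This solved 994 genes (all but TMSB4X). The added 1 is inferred from the solutions, of which 120 have a lowest library of exactly 0 and 12 one of 0.01. Solutions hold up to a common factor or power of value + 1, and the smallest was used. For the 24 members no other kind of solution was found up to a value + 1 of 200 (425 for PLXND1). Tested on simulated data, 100 of 100 genes were solved, 99 exactly, and none of 5 genes with unrounded values was.

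The model was fitted with limma 3.58.1 (R 4.3.3, lmFit and eBayes). It took log2(value + 1) of the 740 genes that reached 1 in 3 or more libraries, and p-values were adjusted over these by Benjamini-Hochberg. On simulated data of 740 genes, 37 of 67 genes changed by 0.5 on the log2 scale, 57 of 67 changed by 1 and 65 of 66 changed by 2 were recovered with the correct sign, while 8 of the 540 without a change were called. The simulation took its spread from genes selected as differing and left most genes unchanged, unlike the table. It therefore checks the fitting and gives no error rate for the calls reported here. For 3 libraries against 3 the smallest two-sided p of the exact permutation test is 0.1, which each of the 24 members reached. The members, the partner lists and the naming rule were chosen with earlier results of these data known. Each member is named. The rule gave library values for up to 10 tested members per direction and for 4 below the filter, and PCDH10, SLIT2, NTN1 and SLITRK2 were added after their values were seen. The design had allowed for counts, normalized values or z-scores. Gene positions are from GENCODE 29. Matplotlib 3.10.9 drew the plots. The alternatives are given in the closing section.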

Additional observations from a re-analysis of the deposited data

How the results depend on the processing

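The direction of the 16 tested members held under each alternative in which they were fitted, and their side of the threshold too, except EFNB3 after median-of-ratios scaling (0.29, adjusted p = 0.0694 from limma) and the members whose change was under 1 in log2 where that was asked for. The counts of members called were 9 lower and 7 higher as reported. Without a filter they were 14 lower and 9 higher of 24, beside 460 lower and 455 higher of 994 table genes, PCDH10 missing the threshold (adjusted p = 0.141 from limma). With a filter of at least 5 they were 3 lower and 3 higher of 6, beside 130 lower and 194 higher of 327 table genes. Asking also for a change of at least 1 in log2 left 7 lower and 3 higher of the 16 members, beside 235 lower and 175 higher of 740 table genes. limma on the deposited z-scores called 15 members lower and 9 higher, beside 484 lower and 465 higher of 995 table genes. With the filter of 5 the 1 higher guidance partner, DPYSL4, was not fitted. With the minimum fold change it was not called, since its log2 change of 0.72 lies under 1. The z-scores gave 3 guidance partners called lower and 1 higher. Among adhesion partners 4 were called lower and 2 higher without a filter and with the z-scores. With a pseudocount of 0.1 the log2 changes of low members were larger, at -5.03 for EPHB6, -4.03 for CADM1, -3.58 for UNC5C and 1.98 for PCDH1. Without each library in turn 9 members were called lower and 7 higher, beside 324 to 328 lower and 365 to 378 higher of 740 table genes. These fits kept the genes that passed with all 6 libraries, which the study had selected as differing. Little change in the calls was therefore likely beforehand.

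The median log2 fold change of the members tested, -0.67, lies between those of EPHA7 (-0.74) and PCDH9 (-0.60). It was -0.86 after median-of-ratios scaling, -0.49 after quantile normalization, -1.18 with a pseudocount of 0.1, -0.32 without a filter, -0.18 with the filter of 5, and -0.75 to -0.59 without each library. With the replicate block, the members called were 9 lower and 7 higher again, beside 329 lower and 385 higher of 740 table genes. Samples of the same number did not deviate together (correlations of -0.22, 0.19 and 0.05 over 740 genes), so the numbers were not read as pairs. The trend and robust fit changed no call of a tested member. Values under 1 have unknown depth, so a listed 0 is not shown to be absence of the transcript.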
